A study of Mus musculus with 162 samples.

Results

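Adipokines are proteins that fat releases into the blood, and the 8 genes described here encode 5 of them together with 3 of their receptors. They were picked by name from the 53686 genes of the count table, and each of the 8 symbols matched 1 gene: Lep, Adipoq, Retn, Cfd and Rbp4 for the ligands, and Lepr, Adipor1 and Adipor2 for the receptors. Leptin, the product of Lep, is secreted by white adipocytes in proportion to their stored fat and restrains feeding through the receptor encoded by Lepr. Adiponectin, the product of Adipoq, acts through AdipoR1 and AdipoR2 to favour fatty acid oxidation and insulin sensitivity. Resistin (Retn), adipsin (Cfd, complement factor D) and retinol-binding protein (Rbp4) are further secreted products of mouse adipocytes, of which the last is also made in quantity by the liver.

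The libraries came from 18 adult male C57BL/6J mice, 8 to 9 weeks old, housed in groups under a 12 h light and 12 h dark cycle. Food was withdrawn 2, 8, 12, 18 or 22 h before all mice were killed at the same time of day, and the 0 h mice, called fed below, had food throughout, with 3 mice at each time. Every mouse gave 9 organs: olfactory bulb (OB), telencephalon with diencephalon (BRN), cerebellum (CBL), brainstem (BST), stomach (STM), liver (LIV), interscapular brown fat (iBAT), perigonadal white fat (pgWAT) and posterior subcutaneous white fat (psWAT). Each organ of each mouse gave 1 bulk RNA sequencing library, and 5 libraries with low totals were left out: the first iBAT library of 22 h, the second psWAT library of 22 h, the last STM library of 12 h, the last BRN library of 8 h and the first BRN library of 18 h. The others held 3045845 to 27801717 counts (median 8735554), with 3156101 to 27801717 in iBAT, 5784709 to 19829510 in pgWAT and 4099281 to 9802381 in psWAT. Levels are given as CPM, the count of a gene scaled to the total of its library. A gene with 3 counts or fewer in a library is called at the floor, which was 0.108 to 0.985 CPM depending on the library. Floors and counting intervals cover counting error only and leave out the spread between mice. Reads copied by PCR are also not independent molecules.

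Across organs, each of the 5 ligands except Rbp4 had its highest median in pgWAT, and Rbp4 had its highest in LIV. White fat RNA was extracted by a different kit, so kit and organ cannot be told apart between white fat and the other organs. Neighbours in the order of medians were compared within mice by a 2-sided sign-flip permutation test on log2(CPM + 0.5), with p-values adjusted over all 64 neighbouring pairs of the 8 genes, and 0.00015 was the smallest adjusted value in that family. Lep had a median of 1619 CPM in pgWAT (n = 18) against 120.9 in psWAT (n = 17; 17 of 17 mice, log2 difference 3.73 ± 1.97 SD, adjusted p = 0.000150, permutation). In iBAT its median was 69.5 CPM (n = 17), and the step from psWAT did not pass the test (12 of 16 mice, log2 difference 0.67 ± 1.82 SD, adjusted p = 0.237, permutation). STM, with 10 of 17 libraries at the floor, its median of 0.146 CPM among them, was over LIV (12 of 17 mice, log2 difference 0.90 ± 1.06 SD, adjusted p = 0.00134, permutation), and in OB, BRN, CBL, BST and LIV every library was at the floor for Lep.

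Adipoq followed with 4804 CPM in pgWAT over 1121 in iBAT (16 of 17 mice, log2 difference 2.02 ± 1.02 SD, adjusted p = 0.000150, permutation), while iBAT and psWAT (452 CPM) did not pass the test (11 of 16 mice, log2 difference 1.13 ± 1.92 SD, adjusted p = 0.0587, permutation). Its next organ, STM, had a median of 2.29 CPM. Retn stepped down from pgWAT (2510.2 CPM) to psWAT (266) to iBAT (82.8), the last step in 12 of 16 mice (adjusted p = 0.00458, permutation) and not with TMM factors (1.02). The brain held a trace of it, 1.27 CPM in BRN, close to STM at 1.03. Cfd reached 13813 CPM in pgWAT, with 2121 in psWAT and 1579 in iBAT not told apart (9 of 16 mice, log2 difference 0.81 ± 1.88 SD, adjusted p = 0.167, permutation). It was at 13.6 CPM in STM and 3.82 in LIV. Rbp4 was the exception, with LIV first at 3564 CPM over pgWAT at 548 (18 of 18 mice, log2 difference 2.82 ± 0.91 SD, adjusted p = 0.000150, permutation). White subcutaneous and brown fat shared the next place at 64.1 and 61.1 CPM (7 of 16 mice, log2 difference -0.050 ± 1.57 SD, adjusted p = 0.975, permutation). The step of Rbp4 from BRN (14.2 CPM) to STM (6.48) was lost with TMM factors (0.50) and with all libraries kept (0.65).

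The receptors were spread more widely. Lepr had its highest median in psWAT, 38.8 CPM, over STM at 13.3 (12 of 16 mice, log2 difference 1.25 ± 1.53 SD, adjusted p = 0.0142, permutation), and this step did not pass with CPM scaled by TMM factors (log2 difference 0.68, adjusted p = 0.0896, permutation). pgWAT (5.35 CPM), BST (3.87) and OB (3.78) came next, with no passing step among the 3, and CBL, BRN and LIV lay between 2.32 and 3.02 CPM. iBAT stood last at 0.487 CPM, with 7 of 17 libraries at the floor. Adipor1 spanned only 66.9 CPM in BRN to 190.5 in iBAT, and Adipor2 86.0 CPM in OB to 750.4 in iBAT. For both, the step from iBAT to pgWAT did not pass the test (9 of 17 mice, log2 difference 0.088 ± 0.28 SD, adjusted p = 0.293 for Adipor1; 9 of 17 mice, log2 difference 0.12 ± 0.49 SD, adjusted p = 0.424 for Adipor2, permutation). LIV was the organ after iBAT and pgWAT for Adipor2, at 374 CPM, a step lost with TMM factors (0.25), with psWAT, BST and STM between 224 and 233.04. The Adipor1 order below pgWAT rested on the scaling: TMM factors turned psWAT over STM (-0.38), CBL over BST (-0.053) and BST over LIV (-0.54) the other way, and with all libraries kept psWAT over STM did not pass (0.16).

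**Figure D1:**
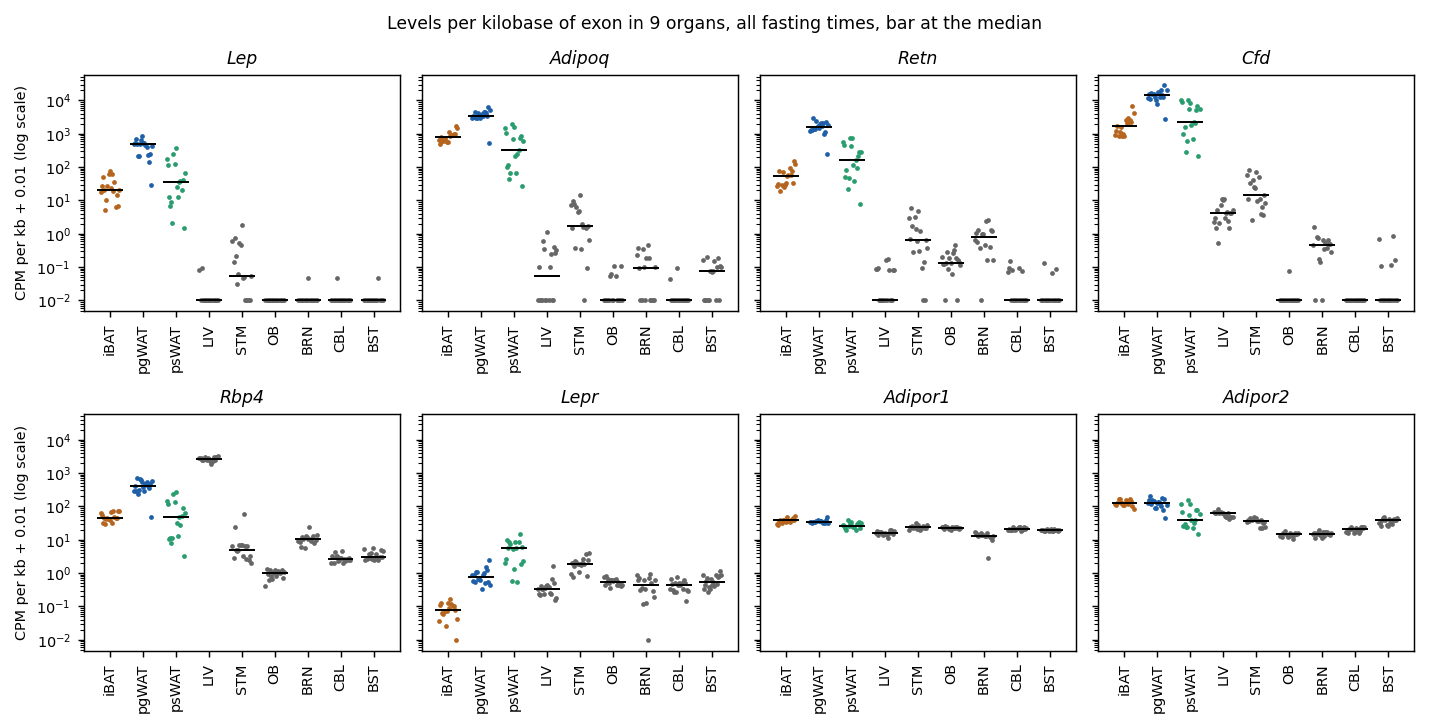
Level per kilobase of exon (CPM per kb + 0.01, log scale) of the 8 genes in 9 organs, with 1 point per library at any fasting time and a bar at the median. In pgWAT the medians run from 14981 CPM per kb for Cfd to 0.760 for Lepr, and Rbp4 is the ligand whose highest organ is LIV, at 2654 CPM per kb.

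Set against each other per kilobase of exon, the ligands of pgWAT were led by Cfd at a median of 14981 CPM per kb, ahead of Adipoq at 3479 and Retn at 1589.7 on the same scale (n = 18). Lep at 483 and Rbp4 at 408 CPM per kb were lower. The receptors stood well under their ligands there, with 125.3 CPM per kb for Adipor2, 34.4 for Adipor1 and 0.760 for Lepr. In LIV, Rbp4 at 2654 CPM per kb exceeded Adipor2 at 62.5 and Adipor1 at 16.3. In iBAT the order of Cfd (1712 CPM per kb), Adipoq (811), Adipor2 (125.5), Retn (52.5), Rbp4 (45.5), Adipor1 (37.9) and Lep (20.7) put a receptor above 3 of the ligands.

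The labels of the depots were checked against cell type markers. All 8 adipocyte markers (Plin1, Plin4, Cidec, Lipe, Pnpla2, Fabp4, Acvr1c and Aqp7) had medians over 1 CPM in each depot, and Fabp4, a fatty acid carrier, was the most abundant of them at medians of 8392 CPM in iBAT, 16759 in pgWAT and 2392 in psWAT. The 7 brown adipocyte markers summed to a median of 8074 CPM in iBAT, 33.6 in pgWAT and 111.5 in psWAT, with Ucp1, the uncoupling protein of brown fat, most abundant in iBAT. In psWAT the summed adipocyte markers ranged from 576 to 29130 CPM: they were 19101, 15253 and 1542 in the fed mice, 2170, 1018 and 1145 at 2 h, 29130, 10030 and 20368 at 8 h, 3572, 1441 and 4428 at 12 h, 3830.5, 8635 and 11856 at 18 h and 576 and 13850 at 22 h.

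The 6 B and T cell markers ran the other way in psWAT, at 797, 1491 and 3195 CPM in the fed mice, 2711, 1896 and 2827 at 2 h, 121.1, 2030.2 and 768 at 8 h, 2431, 2449.6 and 209 at 12 h, 2743, 1771 and 804 at 18 h and 3079.8 and 661 at 22 h, with none of the 6 at 0 in all libraries. Their highest sums fell on libraries with low adipocyte sums, such as fed replicate 3 and 22 h replicate 1. Skeletal muscle markers reached 33759 CPM in psWAT 2 h replicate 2, 23503 in 8 h replicate 2 and 21192 in 18 h replicate 3. Some libraries stood apart. In pgWAT the 7 epididymis markers summed to 22791 CPM in 18 h replicate 3 (Lcn8 at 11406) and 25194 in 22 h replicate 2 (Crisp1 at 21799), against 2898 in 2 h replicate 2, 627 in 22 h replicate 3 and at most 40.3 in the other pgWAT libraries, and 22 h replicate 2 had adipocyte markers of only 3932 CPM. Hepatocyte markers summed to 4106 CPM in pgWAT 18 h replicate 2, with Alb at 3392 CPM against at most 201 elsewhere in pgWAT, and cerebellar neuron markers to 3940 CPM in psWAT 12 h replicate 3. The late fast of pgWAT is given below with and without its 3 libraries that stand apart. In bulk tissue, fewer cells of a type and less RNA per cell cannot be told apart.

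**Figure D2:**
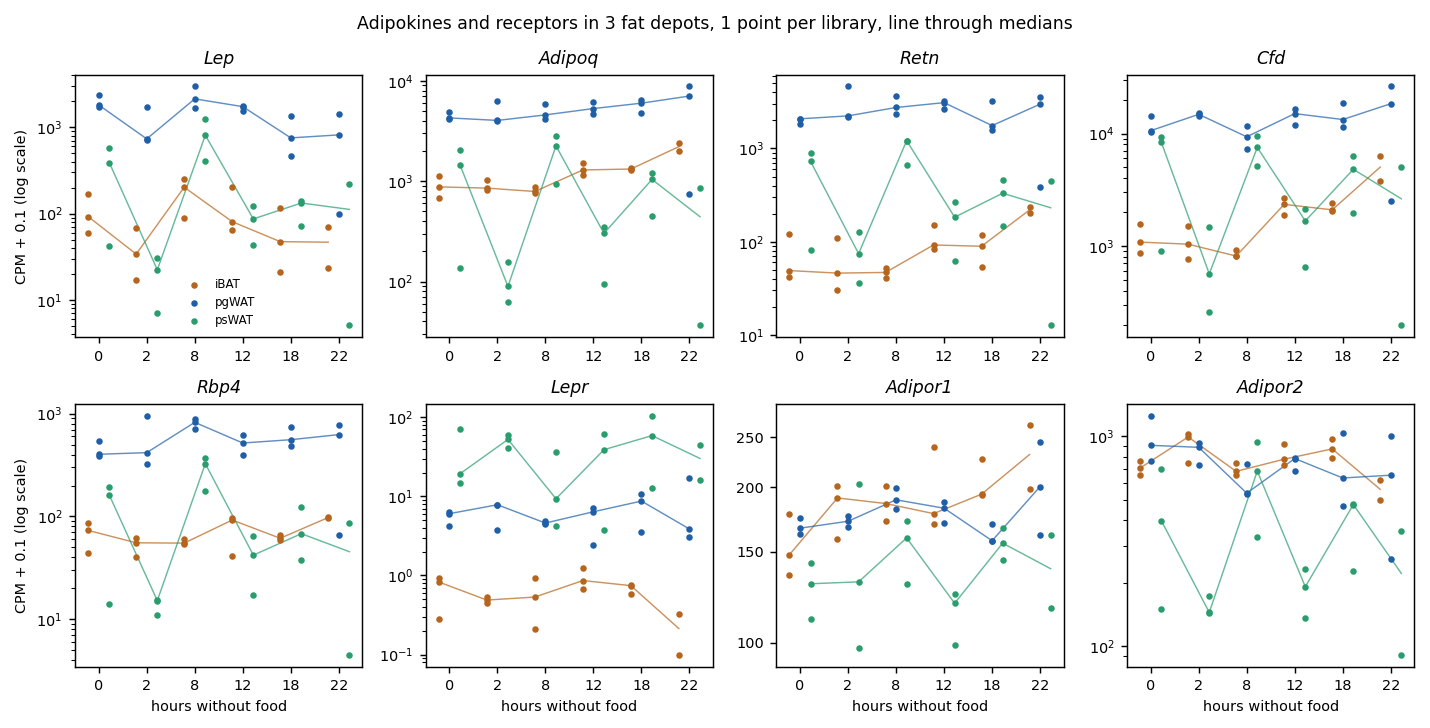
CPM + 0.1 (log scale) of the 8 genes against hours without food in iBAT, pgWAT and psWAT, with 1 point per library and a line through the medians. Lep in pgWAT lies between 1709 and 2378 CPM in the fed mice and between 99.4 and 1436 at 18 and 22 h, and in psWAT every ligand spreads most, as the ratio of highest to lowest, within the 22 h and the fed libraries.

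The main question was whether the ligands and receptors changed with fasting. Each organ was fitted in edgeR with its 6 times, and the mean of 18 and 22 h against fed, called the late fast below, was the leading comparison. A gene was called where its p-value adjusted over all genes tested was under 0.05 and its log2 fold change was over 1 in size, and the joint test of all 5 fasting times needed the adjusted p alone. With 3 mice a time, the p-values measure the spread between mice.

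In iBAT, Cfd, the protease that starts the alternative complement pathway, rose in the late fast. Its level was 861, 1082 and 1579 CPM in the fed mice, 772, 1037 and 1514 at 2 h, 807, 924 and 813 at 8 h, 2344, 1898 and 2649 at 12 h, 2044, 2402 and 2096 at 18 h and 6269 and 3789 at 22 h. Every library from 12 h on lay above the highest fed one, while those of 2 and 8 h lay within or under the fed range. The late fast rise was 2.61-fold (log2 fold change 1.38, SE 0.224, adjusted p = 0.00151 in edgeR; higher in 5 of 5 libraries). Cfd was the 1 member called of 7 tested, by edgeR and by DESeq2, beside 1395 of 14529 genes (9.6%). Lepr was not tested in iBAT because its counts did not pass the filter.

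Adipoq stood at 878, 684 and 1121 CPM in the fed mice, 853, 822 and 1027 at 2 h, 867, 769 and 789.7 at 8 h, 1527, 1162 and 1294 at 12 h, 1301, 1364 and 1322 at 18 h and 2415 and 2007 at 22 h. All libraries from 12 h on exceeded the fed ones, and the 22 h pair was highest. Its late fast difference stayed under the fold threshold (log2 fold change 0.81, SE 0.161, adjusted p = 0.00441 in edgeR), but 22 h alone passed at 2.28-fold (log2 fold change 1.19, SE 0.192, adjusted p = 0.000503 in edgeR; 2 of 2 libraries). Cfd was 4.00-fold higher at 22 h (log2 fold change 2.00, SE 0.262, adjusted p = 0.000186 in edgeR; 2 of 2). Retn, at 41.7, 48.9 and 119.6 CPM fed and 237 and 202 at 22 h, was 2.97-fold higher (log2 fold change 1.57, SE 0.465, adjusted p = 0.0146 in edgeR; 2 of 2), with 30.5, 45.95 and 110.5 CPM at 2 h, 40.99, 46.7 and 52.0 at 8 h, 82.8, 92.2 and 151.4 at 12 h and 89.3, 118.9 and 53.2 at 18 h overlapping the fed range. These were 3 of 7 members at 22 h beside 4310 of 14529 genes (29.7%), called by both tools. At 18 h edgeR called 0 of 7 (2, Adipoq and Cfd, at an unadjusted p under 0.05; 0 by DESeq2) beside 39 genes (0.268%), with Cfd at 0.77 (SE 0.237, adjusted p = 0.259) and Adipoq at 0.43. The joint test called the same 3 (adjusted p = 0.000513 for Adipoq, 0.000263 for Cfd and 0.0172 for Retn in edgeR) beside 4210 genes (29%).

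The remaining members of iBAT were not called. Lep, at 60.1, 92.1 and 168.9 CPM fed, 117.1, 20.9 and 47.2 at 18 h and 23.4 and 69.5 at 22 h, had overlapping groups (log2 fold change -1.08, SE 0.639, adjusted p = 0.240 in edgeR). Retn did not pass in the late fast (log2 fold change 0.90, SE 0.391, adjusted p = 0.108 in edgeR) unless fed replicate 3, its highest fed library at 120 CPM, was left out (1.39, adjusted p = 0.0326 in edgeR). Rbp4 ranged from 40.1 to 98.3 CPM over all times (late fast log2 fold change 0.026, SE 0.264). For the receptors, Adipor1 was at 148.02, 134.9 and 178 CPM fed, 192.97, 194 and 227 at 18 h and 199 and 264 at 22 h. Its log2 fold change was 0.37 in the late fast (SE 0.164, adjusted p = 0.111 in edgeR) and 0.47 at 22 h (SE 0.199, adjusted p = 0.0680), both at an unadjusted p under 0.05. Adipor2 was at 707, 655 and 765 CPM fed, 786, 976 and 872 at 18 h and 618 and 500.1 at 22 h, where both libraries lay under the fed ones. Its log2 fold change was -0.16 in the late fast (SE 0.164) and -0.47 at 22 h (SE 0.207, adjusted p = 0.0775 in edgeR), the latter at an unadjusted p under 0.05.

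Other features of the iBAT libraries moved with the 22 h group. The 8 adipocyte markers, led by Fabp4 and with none at 0, summed to 13591, 11761 and 14579 CPM in the fed mice, 15664, 16987 and 17470 at 18 h and 24129 and 23068 at 22 h. The 7 brown adipocyte markers, led by Ucp1, summed to 10621, 7296 and 8074 CPM fed and 17744 and 12150 at 22 h, and the 3 endothelial markers, led by Cdh5, to 484, 716 and 399.9 fed and 132.1 and 195 at 22 h. The 4 red blood cell markers, led by Hbb-bs, summed to 186.9, 136.8 and 447 CPM fed and 499.7 and 648 at 22 h, and the 5 macrophage markers, led by C1qa, to 14.0, 28.3 and 60.98 fed and 68.1 and 64.8 at 22 h. At lower levels, the 5 keratinocyte markers, led by Krt10 and with 1 at 0 in every library, summed to 4.01, 2.11 and 6.79 CPM fed and 13.6 and 12.9 at 22 h. The 5 hepatocyte markers, led by Apoa2, summed to 0.986, 1.12 and 2.82 CPM fed and 10.8 and 4.53 at 22 h, and the 4 neutrophil markers, led by S100a8, to 0.49299, 0.264 and 1.25 fed and 3.49 and 1.36 at 22 h. Fed and 22 h sums did not overlap in any of these 8 lists, and their part in the result was not tested. Of 8 adipocyte and 7 brown adipocyte markers tested in the late fast, edgeR called none (medians 0.12 and 0.32). With the log2 adipocyte sum as a covariate, an alternative added after the data were seen, no gene was called in the late fast or at 22 h (Cfd 0.95, adjusted p = 0.722, and 1.38, adjusted p = 0.929; Adipoq 0.57 and Retn 0.43 at 22 h). In the joint test that covariate left 59 genes, with adjusted p = 0.4926 for Adipoq, 0.202 for Cfd and 0.867 for Retn. Both 22 h sums lay above that of every other iBAT library (at most 19907 CPM, at 12 h). The covariate therefore cannot separate the adipocyte sum from 22 h. Both retained 22 h libraries came from lanes that hold no iBAT library of another time, so 22 h and lane cannot be told apart. With no filter on the genes Retn lost its 22 h call (adjusted p = 0.0552) and its joint call (adjusted p = 0.0785). It also lost the 22 h call without fed replicate 2 (1.40, adjusted p = 0.0628) or 22 h replicate 2 (1.44, adjusted p = 0.0938), and the joint call without 22 h replicate 2 (adjusted p = 0.142) or 3 (adjusted p = 0.0555). The 1395 genes became 470 without fed replicate 2, 888 without 22 h replicate 2 and 2720 without 22 h replicate 3. Without 22 h replicate 2, the genes called at 22 h numbered 2363 and those of the joint test 876. The 1395 split into 366 higher and 1029 lower, and into 632 and 743 when scaled by the library total alone, a scaling that moved the members by a median of 0.13 (log2).

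In pgWAT, the depot with the most Lep, that gene stood at 1709, 1813 and 2378 CPM in the fed mice, 1706, 707 and 734 at 2 h, 1679, 2135 and 2971 at 8 h, 1735, 1762 and 1558 at 12 h, 1359, 754 and 462 at 18 h and 816, 99.4 and 1436 at 22 h. All 6 late libraries lay under the lowest fed one, as did all 3 of 2 h, while 8 h reached above the fed range. Across all genes the difference did not pass (log2 fold change -1.10, SE 0.575, adjusted p = 0.269 in edgeR). Adipoq, at 4146, 4852 and 4273 CPM fed, 6399.5, 5992 and 4757 at 18 h and 8790.3, 744 and 7058 at 22 h, did not pass either (log2 fold change 0.52, SE 0.533, adjusted p = 0.579 in edgeR). Its lowest library, 22 h replicate 2, is the one rich in epididymis markers, and the other late libraries overlapped or exceeded the fed ones. Other markers moved with the same groups: the 3 endothelial markers, led by Pecam1, summed to 378, 308 and 420.4 CPM fed, 188.4, 298 and 94.2 at 18 h and 129.9, 82.3 and 124.6 at 22 h, without overlap. The 7 brown adipocyte markers, led by Kcnk3, summed to 23.2, 28.6 and 28.1 CPM fed and 44.1, 29.3, 30.7, 31.5, 45.4 and 46.6 late, and the 7 skeletal muscle markers, led by Acta1, to 12.8, 13.6 and 14.7 fed and 40.3, 25.3, 23.6, 18.7, 565 and 113.3 late, both higher without overlap. No marker of these 3 lists was at 0 in every library, and their part in the result was not tested.

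The other members gave late fast log2 fold changes of 0.53 (SE 0.522) for Cfd, 0.34 (SE 0.538) for Retn, 0.46 (SE 0.567) for Rbp4, 0.56 (SE 0.478) for Lepr, 0.22 (SE 0.129) for Adipor1 and -0.38 (SE 0.368) for Adipor2. In CPM over all 18 libraries Cfd ranged from 2488 to 26215, Retn from 384 to 4622, Rbp4 from 66.1 to 956 and Lepr from 2.32 to 17.1, each with its extreme low or, for Lepr, its extreme high in 22 h replicate 2. Adipor1 ranged from 157.03 to 244 and Adipor2 from 260.0 to 1255. By edgeR 0 of 8 members were called, with 0 at an unadjusted p under 0.05, and DESeq2 called 0, with Adipor1 and Lep under 0.05 unadjusted. Over all genes, edgeR called 1 of 16412 (0.00609%; 3567 at an unadjusted p under 0.05) and DESeq2 579. Without 22 h replicate 2 the count was 179, without 8 h replicate 1 it was 5, without 18 h replicate 1 it was 6 and without 22 h replicate 3 it was 10. With the 3 libraries that stand apart left out, 0 genes were called, Lepr turned to -0.48, and Lep was at -0.50, Cfd at 0.97, Retn at 0.88, Rbp4 at 0.90 and Adipoq at 0.87, none of them passing. With the adipocyte sum as a covariate 366 genes were called, among them Lep (-1.24, adjusted p = 0.0395 in edgeR). That sum was 3932 CPM in 22 h replicate 2 and 21970 to 37766 in the other libraries, so the covariate rests largely on 22 h replicate 2. All fed pgWAT libraries came from 1 lane and all late ones from another, and the 12 h libraries lay on both. With the lane as a covariate, an alternative added after the data were seen that rests on such times, 0 genes were called, Lep was at -0.96 (SE 1.28) and Lepr turned to -0.86 (SE 0.952).

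psWAT gave the widest spread. Lep was at 572, 389.6 and 41.9 CPM in the fed mice, 22.2, 30.8 and 6.97 at 2 h, 808, 403 and 1241 at 8 h, 86.5, 42.8 and 120.9 at 12 h, 132.4, 70.8 and 139.99 at 18 h and 4.95 and 218 at 22 h. Adipoq was at 2044, 1459 and 137.1 CPM fed, 157.4, 62.01 and 89.3 at 2 h, 2803, 939 and 2249 at 8 h, 302, 93.5 and 347 at 12 h, 452, 1042 and 1196 at 18 h and 36.4 and 847 at 22 h. Fed replicate 3 and 22 h replicate 1 were low in both genes, as they were in adipocyte markers, and the fed and late groups overlapped. The late fast gave -1.71 for Lep (SE 0.957, adjusted p = 0.936 in edgeR) and -1.09 for Adipoq (SE 0.923, adjusted p = 0.956). For the others the log2 fold changes were -1.01 (SE 0.942) for Cfd, -1.21 (SE 0.940) for Retn, -1.20 (SE 0.869) for Rbp4, 0.24 (SE 0.811) for Lepr, 0.095 (SE 0.272) for Adipor1 and -0.64 (SE 0.578) for Adipor2. edgeR called 0 of 8 members and 0 of 16721 genes (0%), with 0 members and 867 genes at an unadjusted p under 0.05, and DESeq2 called 0 members and 2 genes. At 2 h the differences were larger, -4.42 for Lep (SE 1.24, adjusted p = 0.406 in edgeR), without passing.

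Lepr in psWAT was at 14.5, 19.2 and 71.0 CPM in the fed mice, 40.2, 59.8 and 52.3 at 2 h, 4.08, 36.4 and 9.22 at 8 h, 61.9, 38.8 and 3.62 at 12 h, 58.4, 104.5 and 12.8 at 18 h and 43.9 and 16.1 at 22 h. Its highest library, 18 h replicate 2, had Adipoq over the psWAT median, and its lowest, 12 h replicate 3, had Adipoq under it. Over the 35 white fat libraries, after each depot's mean was subtracted, Lep and Lepr had r = -0.63 on log2(CPM + 0.5). The points share mice across depots and the adipocyte content of each library, so this r is a description.

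Whether the late fast differed between depots was tested by interaction terms in 1 fit of the 3 depots, where the adjusted p alone decides. That fit took the 3 depots of a mouse as independent libraries, and the animal as a block was an alternative. Between iBAT and pgWAT, edgeR called 0 of 8 members (0 at an unadjusted p under 0.05; 0 by DESeq2) and 4 of 18864 genes (0.0212%), which were Gm16023, Impdh1, Maff and Tab3, named after their values were seen. Between psWAT and pgWAT it called 0 of 8 members (0 at an unadjusted p under 0.05; 0 by DESeq2) and 0 genes (0%; 1661 at an unadjusted p under 0.05; 73 by DESeq2). Between iBAT and psWAT it called 0 of 8 members (2, Cfd and Retn, at an unadjusted p under 0.05; 0 by DESeq2) and 158 genes (0.838%). In that last comparison Cfd differed by 2.30 (SE 0.932, adjusted p = 0.185 in edgeR), Retn by 2.03 (adjusted p = 0.266) and Adipoq by 1.81 (adjusted p = 0.287). Leaving out psWAT 22 h replicate 3, the late psWAT library with the most adipocyte markers, brought Cfd (4.25, adjusted p = 0.0115), Retn (4.20, adjusted p = 0.0144), Adipoq (3.68, adjusted p = 0.0166) and Rbp4 (2.88, adjusted p = 0.0471) past the threshold. Leaving out fed psWAT replicate 3 did so for Cfd (2.90, adjusted p = 0.0465). The 158 genes of that comparison became 1320 without iBAT 22 h replicate 3, 1237 without fed psWAT replicate 3 and 1224 without psWAT 22 h replicate 3, within a range of 5 to 1320 over all single libraries. The 4 genes of the first comparison became 392 without iBAT 22 h replicate 3, and the 0 of the second became 17 without fed psWAT replicate 3. So the iBAT rise in Cfd was not shown to differ from the other depots with all libraries kept.

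Relating Lep to Adipoq within a library sets the depots' spread in adipocyte content aside in part. The ratio also moves with Adipoq, whose late fast log2 fold change was 0.52 in pgWAT, 0.81 in iBAT and -1.09 in psWAT. In pgWAT, Lep was 41.2, 37.4 and 55.7% of Adipoq in the fed mice, 27.01, 17.7 and 18.2% at 2 h, 28.9, 46.6 and 70.8% at 8 h, 32.8, 37.4 and 25.2% at 12 h, 21.2, 12.6 and 9.72% at 18 h and 9.28, 13.4 and 20.3% at 22 h, from CPM. The 6 late libraries all lay under the 3 fed ones, and 2 h was low as well. The mean log2 ratio was -1.18 ± 0.30 (SD, n = 3) fed and -2.87 ± 0.51 (SD, n = 6) late, a difference of -1.69 (2-sided exact permutation p = 0.0119, the smallest that 84 arrangements allow; adjusted p = 0.0357 over 3 depots). Leaving out any 1 of the 6 late libraries gave an adjusted p of 0.0536, and any 1 of the 3 fed libraries 0.107, each the smallest possible at those numbers in the exact test, with differences from -1.81 to -1.52. Without the 3 libraries that stand apart the difference was -1.47 (exact p = 0.1, the smallest for 3 against 3). The fed pgWAT libraries came from 1 lane and the late ones from another, so this test cannot tell late fast and lane apart.

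In iBAT, Lep was 6.85, 13.5 and 15.1% of Adipoq in the fed mice, 7.91, 2.08 and 3.29% at 2 h, 10.3, 26.3 and 31.7% at 8 h, 5.27, 17.3 and 4.96% at 12 h, 9.00, 1.53 and 3.57% at 18 h and 0.971 and 3.46% at 22 h. Of the late libraries 4 of 5 lay under the lowest fed one, as did 2 of 3 at 2 h and at 12 h. The late minus fed difference in mean log2 ratio was -1.99 (exact permutation p = 0.0714, adjusted p = 0.107), and -2.42 (adjusted p = 0.0429, exact) without 18 h replicate 1, the highest late library at 9.00%. In psWAT, Lep was 27.99, 26.7 and 30.5% of Adipoq fed, 14.1, 49.7 and 7.81% at 2 h, 28.8, 42.9 and 55.2% at 8 h, 28.7, 45.7 and 34.9% at 12 h, 29.3, 6.80 and 11.7% at 18 h and 13.6 and 25.8% at 22 h, with 4 of 5 late libraries under the fed ones and a late minus fed difference of -0.88 (exact permutation p = 0.161, adjusted p = 0.161). The 3 fed psWAT libraries, whose Lep spanned 41.9 to 572 CPM, were thus within 26.7 to 30.5% of Adipoq.

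**Figure D3:**
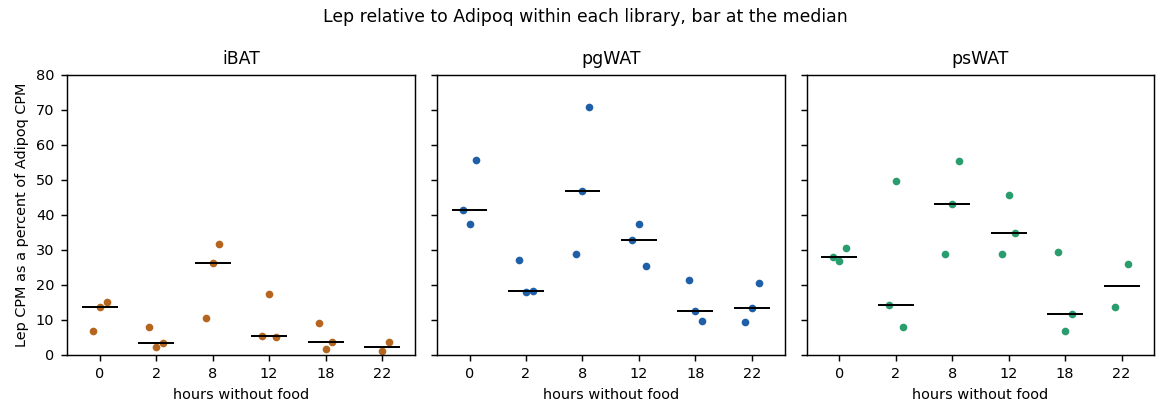
Lep CPM as a percent of Adipoq CPM (y axis) against hours without food in iBAT, pgWAT and psWAT, with 1 point per library and a bar at the median. In pgWAT the 3 fed libraries lie between 37.4 and 55.7% and the 6 libraries of 18 and 22 h between 9.28 and 21.2%.

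The same was done with the summed adipocyte markers as the base, a choice made after the data were seen and so given without a test. Lep amounted to 6.52 to 9.15% of that sum in fed pgWAT and 1.89 to 4.40% late, with no overlap, and to 2.71 to 4.68% at 2 h. Adipoq amounted to 16.4 to 17.9% fed and 18.5 to 24.2% late, the other direction. In psWAT the ligands' spread over 17 libraries shrank on this base: Adipoq spanned 76.9-fold in CPM and 1.98-fold as a percent of the sum, Retn 96.5-fold and 3.00-fold, Rbp4 83.1-fold and 2.90-fold, and Cfd 47.9-fold and 2.65-fold. Lep kept more of its spread, 251-fold in CPM and 10.0-fold as a percent. In iBAT, Cfd was 6.34 to 10.8% of the sum in fed mice and 16.4 to 25.98% at 22 h, and Adipoq 5.82 to 7.69% and 8.70 to 10.0%, so that both 22 h libraries lay above the fed ones for each gene.

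**Figure D4:**
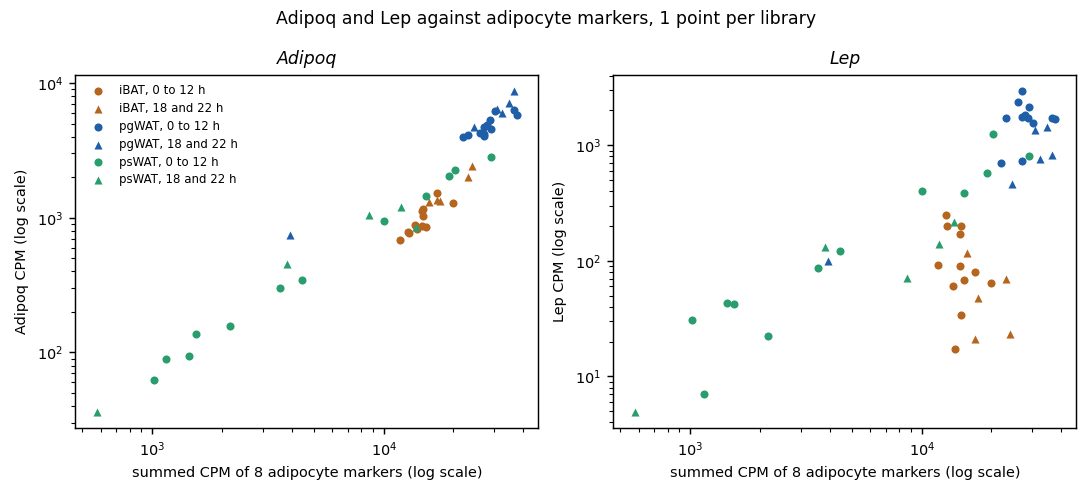
Adipoq CPM (left) and Lep CPM (right) against the summed CPM of 8 adipocyte markers, log scales, with 1 point per fat library, colour for the depot, circles for 0 to 12 h and triangles for 18 and 22 h. psWAT runs from 576 to 29130 CPM of markers with Adipoq from 36.4 to 2803 CPM along it, and the late pgWAT triangles lie under the fed circles for Lep relative to the markers.

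The depots were also compared averaged over the 6 times with equal weight, in the same fit, which took the 3 depots of a mouse as independent libraries. Their cell content differed: medians of the summed adipocyte markers were 14829 CPM in iBAT, 28236 in pgWAT and 4428 in psWAT, and those of the B and T cell markers 2.77, 13.5 and 1896. Their part in the differences was not tested. White fat RNA was extracted by a different kit from that of iBAT, so kit and depot cannot be told apart between iBAT and white fat. Against pgWAT, iBAT was lower in Retn (log2 fold change -4.25, SE 0.383, adjusted p = 2.18e-12 in edgeR), Lep (-3.41, SE 0.407), Lepr (-3.03, SE 0.381), Rbp4 (-2.40, SE 0.316), Cfd (-2.29, SE 0.320) and Adipoq (-1.49, SE 0.304), 6 of 8 members beside 7070 of 18864 genes (37.5%). Adipor1 (0.76) and Adipor2 (0.67) passed the adjusted p in the other direction but not the fold threshold, and under the library total alone they were at 0.10 (adjusted p = 0.264) and 0.013 (adjusted p = 0.992). That scaling moved the members by a median of -0.65 and the genes called from 2579 higher and 4491 lower to 1287 and 7200. The 5 ligands and Lepr were called lower under both scalings.

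Against pgWAT, psWAT was lower in Lep (log2 fold change -3.47, SE 0.409, adjusted p = 1.55e-09 in edgeR), Adipoq (-3.41, SE 0.336), Retn (-3.31, SE 0.358), Rbp4 (-3.29, SE 0.334), Cfd (-2.36, SE 0.321) and Adipor2 (-1.50, SE 0.196) and higher in Lepr (log2 fold change 2.32, SE 0.305, adjusted p = 1.71e-08 in edgeR), 7 of 8 members beside 7944 genes (42.1%). Adipor1 (-0.54, SE 0.0843) did not reach the fold threshold. The library total moved these members by a median of 0.17. Between iBAT and psWAT, iBAT was higher in Adipor2 (log2 fold change 2.16, SE 0.203, adjusted p = 3.46e-12 in edgeR), Adipoq (1.93, SE 0.313) and Adipor1 (1.30, SE 0.0870) and lower in Lepr (-5.35, SE 0.407), 4 of 8 members beside 9273 genes (49.2%), a share near that of all genes. The library total moved the members by -0.82 there and the split from 3719 higher and 5554 lower to 1699 and 9280, and Adipor1 then lost its call (0.46). Retn (-0.94, SE 0.326) was not called by edgeR but was by DESeq2 (-1.03, adjusted p = 0.00149) and under the library total (-1.73), and Rbp4 (0.89, SE 0.305) was called with the animal as a block (1.21, adjusted p = 0.00123). Lep (0.063) and Cfd (0.069) lay near 0 and changed sign with DESeq2 (-0.052 and -0.023) and the library total (-0.75 and -0.74).

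Outside fat, STM was the organ with the most members called. Lep there was at 1.98, 0.442 and 2.48 CPM in the fed mice (15, 4 and 20 counts), 0.709, 0.0726 and 0.175 at 2 h, 1.70, 1.46 and 6.00 at 8 h, 0.119 and 0.137 at 12 h, 0, 0 and 0 at 18 h and 0, 0 and 0.146 at 22 h. The 6 late libraries together held 1 Lep count against 39 in the 3 fed ones, a pooled ratio of 76.7 with a 95% exact counting interval from 13.0 to 3108. That interval leaves out the spread between mice. Retn was at 4.76, 1.11 and 9.29 CPM fed, 2.75, 0.436 and 4.99 at 2 h, 2.13, 0.939 and 7.40 at 8 h, 0.478 and 1.92 at 12 h, 0.133, 0 and 0.211 at 18 h and 0, 1.03 and 0.584 at 22 h. Each late library of both genes lay under the lowest fed one. Cfd was at 54.04, 9.95 and 75.7 CPM fed, 30.1, 2.32 and 36.9 at 2 h, 23.4, 21.3 and 63.5 at 8 h, 8.60 and 46.1 at 12 h, 10.4, 3.58 and 5.90 at 18 h and 3.45, 13.6 and 7.59 at 22 h, and fed replicate 2 overlapped the late group.

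In the late fast Lep (log2 fold change -6.08, SE 1.101, adjusted p = 0.00520 in edgeR), Retn (-4.46, SE 0.947, adjusted p = 0.00878) and Cfd (-2.90, SE 0.819, adjusted p = 0.0348) fell, 3 of 8 members beside 1155 of 16281 genes (7.09%). Fitted fold changes of genes so near the floor depend on the prior count and set no bound. DESeq2 called these and Adipoq, which was at 10.0, 1.99 and 13.5 CPM fed, 2.13, 0 and 2.11 at 18 h and 0.115, 2.29 and 0.876 at 22 h (-2.98, adjusted p = 0.0517 in edgeR). At 18 h Lep had 0 counts, and the pooled fed level was 12.8-fold that of 3 counts over the 18 h group. This ratio leaves out the spread between mice. At that time Lep (adjusted p = 0.0112) and Retn (adjusted p = 0.0160) were the 2 of 8 members called by edgeR, beside 1419 genes (8.72%), while DESeq2 called 3 (Cfd, Lep and Retn). At 22 h edgeR called 0 of 8 members (5, Adipoq, Cfd, Lep, Rbp4 and Retn, at an unadjusted p under 0.05; 1, Retn, by DESeq2) beside 38 genes (0.233%), with Lep at -5.07 (adjusted p = 0.0709). The joint test called Lep (adjusted p = 0.0118), 1 of 8 beside 1067 genes (6.55%), and DESeq2 called 4 (Adipor2, Lep, Rbp4 and Retn).

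Each of these calls was lost when some mice were left out. Without all replicate 1 libraries of STM the late fast became -5.72 (adjusted p = 0.113) for Lep, -4.25 (0.131) for Retn and -2.86 (0.157) for Cfd in edgeR. Without replicate 3, whose fed library held the highest values, it became -6.52 (0.172), -3.92 (0.208) and -2.17 (0.463). At 18 h the same omissions gave 0.140 and 0.183 for Lep and 0.166 and 0.169 for Retn, and in the joint test 0.317 and 0.323 for Lep. With each replicate number left out in turn, the 18 h log2 fold change ran from -7.57 to -6.52 for Lep and from -5.59 to -5.32 for Retn. The late fast count of 1155 genes became 13 without replicate 1, 2240 without replicate 2 and 0 without replicate 3. The counts at 18 h became 4, 2500 and 1, and those of the joint test 4, 635 and 1. Cfd also lost its call with the library total (adjusted p = 0.0567), with no filter (0.0615) and with all 18 libraries (0.0527). The replicate number as a block ended the Cfd call as well. The library total moved the members by 0.21 and turned the split from 557 higher and 598 lower to 719 and 308. The fed and late STM libraries came from different lanes, and only the 8 h libraries lay on both. With the lane as a covariate, added after the data were seen, no gene was called in the late fast, at 18 h or in the joint test. Lep was then at -7.87 (SE 1.58, adjusted p = 0.725 in edgeR), Retn at -6.64 (SE 1.59, adjusted p = 0.725) and Cfd at -4.28 (SE 1.60, adjusted p = 0.725). At 18 h Lep was at -8.89 (adjusted p = 0.567 in edgeR) and Retn at -7.67 (adjusted p = 0.567), against -7.10 and -5.50 without the covariate. In the joint test the adjusted p was 0.427 for Lep.

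Markers in STM moved with the same groups. Of the 8 adipocyte markers, summing to 272, 242 and 298 CPM fed, 332, 322 and 343 at 18 h and 315, 338 and 407 at 22 h, Pnpla2 was the most abundant and none was at 0 in every library. Plin1, a protein of the lipid droplet surface, was at 5.28, 0.774 and 4.34 CPM fed, 0, 0 and 0.527 at 18 h and 0.345, 0.572 and 2.63 at 22 h (log2 fold change -3.05, SE 1.03, adjusted p = 0.0591 in edgeR). Of the 7 tested, Plin4 was higher (1.33, adjusted p = 0.00962) and none was called lower by edgeR. The 6 gastric epithelium markers, led by Gkn1, summed to 41997, 32247 and 67093 CPM fed, 9307, 29868 and 9544 at 18 h and 33613, 22826 and 10211 at 22 h. The 4 pancreatic acinar markers, led by Cel, summed to 38.7, 21.2 and 129 CPM fed, 10.9, 1.51 and 7.06 at 18 h and 13.6, 20.6 and 6.13 at 22 h. The 7 skeletal muscle markers, led by Acta1, summed to 1693, 1606 and 238 CPM fed, 2336, 4215 and 2315 at 18 h and 2282, 3030.4 and 4580.3 at 22 h. The 4 neuron markers, led by Snap25, summed to 13.3, 22.9 and 25.3 CPM fed, 70.0, 41.4 and 64.2 at 18 h and 51.2, 43.5 and 53.3 at 22 h, and the 6 cerebellar neuron markers, led by Car8 and with 1 at 0 in every library, to 7.80, 8.74 and 18.96 fed, 4.93, 3.44 and 5.06 at 18 h and 4.94, 7.21 and 6.42 at 22 h. Fed and late sums did not overlap for adipocyte, pancreatic acinar, skeletal muscle, neuron and cerebellar neuron markers. Their part in the result was not tested.

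In LIV, which carries adiponectin receptor 2, Adipor2 was at 399, 385 and 373 CPM in the fed mice, 419.8, 484 and 390.3 at 2 h, 393, 375 and 379 at 8 h, 352, 314 and 298 at 12 h, 287, 386 and 247 at 18 h and 297, 289 and 281 at 22 h. All late libraries but 18 h replicate 2 lay under the lowest fed one. The late difference passed the adjusted p but not the fold threshold (log2 fold change -0.46, SE 0.118, adjusted p = 0.0171 in edgeR), and the joint test called it (adjusted p = 0.0147 in edgeR), 1 of 5 members tested beside 2241 of 14023 genes (16%). Rbp4, the plasma retinol carrier made by hepatocytes, was at 3924, 3874 and 3401 CPM fed, 3155, 3961 and 3377 at 18 h and 3951, 3989 and 4501 at 22 h (-0.060, SE 0.110) and was called, with Cfd, only in the joint test of DESeq2. In the late fast edgeR called 0 of 5 members (1, Adipor2, at an unadjusted p under 0.05; 0 by DESeq2) beside 1.66% of the 14023 genes, of which 48.1% were higher, or 67.9% under the library total. Their number became 57.5% of itself without fed replicate 2 and 57.9% without fed replicate 3, and the 2241 became 1342 without fed replicate 1, 1297 without fed replicate 2, 1274 without 2 h replicate 2, 1438 without 2 h replicate 3 and 1371 without 12 h replicate 2. The fed and late LIV libraries also came from different lanes, with the 8 h libraries on both. The lane as a covariate left 21 genes in the late fast and 294 in the joint test, where Adipor2 lost its call (adjusted p = 0.376), at -0.51 in the late fast (SE 0.241, adjusted p = 0.317).

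The brain regions held the receptors and no called member. By edgeR the late fast called 0 of 4 members in OB (1, Lepr, at an unadjusted p under 0.05; 0 by DESeq2) beside 29 of 16742 genes (0.173%), 0 of 5 in BRN (1, Adipor1; 0 by DESeq2) beside 861 of 16749 (5.14%), 0 of 4 in CBL (1, Adipor2; 0 by DESeq2) beside 11 of 15976 (0.0689%) and 0 of 4 in BST (1, Adipor2; 0 by DESeq2) beside 1 of 16784 (0.00596%). The 1 gene of BST, named after its value was seen, was Angptl4 (log2 fold change 1.25, SE 0.256, adjusted p = 0.0453). The 861 genes of BRN became 0 without replicate 1, 293 without replicate 2 and 3767 without replicate 3, and their split of 631 higher and 230 lower became 382 and 419 under the library total. In BRN no gene was called with the lane as a covariate or with all 18 libraries. In OB the 29 genes became 0 with the lane as a covariate, tied by the 8 h libraries as in LIV, and 3, 69 and 10 without replicates 1, 2 and 3, in CBL the 11 became 21 without replicate 1 and 2 without replicate 3, and in BST the 1 became 6, 0 and 0. Over all times Lepr ranged from 2.47 to 5.65 CPM in OB, 0 to 6.57 in BRN, 0.926 to 5.17 in CBL and 1.87 to 7.92 in BST. Retn in BRN ranged from 0 to 3.94 CPM, with 4 of 16 libraries at the floor.

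Genes around the 8 members were followed in 7 lists, described by counts and by medians beside those of all genes tested: in the late fast -0.065 in iBAT, 0.051 in pgWAT, -0.012 in psWAT, 0.006 in LIV and -0.003 in STM, and -0.11 for iBAT at 22 h (log2 fold changes). Of all genes edgeR called 9.6% in the late fast of iBAT and 29.7% at 22 h, 0.00609% in pgWAT, 0% in psWAT, 1.66% in LIV and 7.09% in STM. Of other adipokines, iBAT had 2 of 19 higher in the late fast (median 0.29): Angptl4, a lipoprotein lipase inhibitor (1.75, adjusted p = 0.00290 in edgeR), and Retnla (1.504, adjusted p = 0.0427). At 22 h there were 4 of 19 higher (median 0.44), adding C1qtnf12 (1.13) and Rarres2, which encodes chemerin (1.33). LIV had 1 of 16 lower (Nucb2, -1.43; median 0.063) and STM 1 of 22 higher and 1 lower (Angptl4 1.31, Dpp4 -1.38; median -0.036). pgWAT had 0 of 21 called by edgeR (4 at an unadjusted p under 0.05, 1 called by DESeq2), with a median of 0.076, and psWAT 0 of 21 called by edgeR (1 at an unadjusted p under 0.05, 0 called by DESeq2), with a median of -0.12.

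Adipocyte transcription factors were the other list with more than 1 call in the late fast of iBAT, 2 of 9 higher (Klf15 1.11, Cebpd 1.41; median 0.074) and 2 of 9 higher and 2 lower at 22 h (Cebpd 1.99, Cebpb 1.46, Srebf1 -1.22, Ebf1 -1.01; median -0.16). STM had 1 of 8 higher (Cebpd 1.71; median 0.47). pgWAT had 0 of 9 called by edgeR (4 at an unadjusted p under 0.05, 2 called by DESeq2), psWAT 0 of 9 called by edgeR (1 at an unadjusted p under 0.05, 0 called by DESeq2) and LIV 0 of 6 called by edgeR (4 at an unadjusted p under 0.05, 1 called by DESeq2), with medians of -0.45, -0.49 and 0.013. For adiponectin signalling and assembly, iBAT had 1 of 11 lower in the late fast (Prkaa2, a catalytic subunit of AMP-activated kinase, -1.23; median -0.31) and 2 of 11 lower at 22 h (Prkaa2 -2.12, Ppargc1a -1.01; median -0.64). The list had 0 of 11 called by edgeR (3 at an unadjusted p under 0.05, 1 called by DESeq2) in pgWAT, 0 of 11 called by edgeR (0 at an unadjusted p under 0.05, 0 called by DESeq2) in psWAT, 0 of 11 called by edgeR (5 at an unadjusted p under 0.05, 0 called by DESeq2) in LIV and 0 of 11 called by edgeR (4 at an unadjusted p under 0.05, 0 called by DESeq2) in STM, with medians of -0.26, -0.069, -0.18 and 0.14. Leptin signalling genes numbered 2 of 12 lower at 22 h in iBAT (Ptpn11 -1.15, Irs1 -1.65; median -0.33). In the late fast that list had 0 of 12 called by edgeR (4 at an unadjusted p under 0.05, 0 called by DESeq2) in iBAT, 0 of 12 called by edgeR (5 at an unadjusted p under 0.05, 0 called by DESeq2) in pgWAT, 0 of 12 called by edgeR (0 at an unadjusted p under 0.05, 0 called by DESeq2) in psWAT, 0 of 12 called by edgeR (4 at an unadjusted p under 0.05, 0 called by DESeq2) in LIV and 0 of 12 called by edgeR (2 at an unadjusted p under 0.05, 0 called by DESeq2) in STM, with medians of -0.23, -0.33, 0.013, 0.12 and 0.025.

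Of the alternative complement genes, among which Cfd acts, Cfp (properdin) was called higher at 22 h in iBAT (1.46; 1 of 7 higher, median -0.16) and in the late fast of STM (1.28; 1 of 7 higher, median -0.49). The late fast had 0 of 7 called by edgeR (1 at an unadjusted p under 0.05, 0 called by DESeq2) in iBAT, 0 of 9 called by edgeR (1 at an unadjusted p under 0.05, 0 called by DESeq2) in pgWAT, 0 of 8 called by edgeR (0 at an unadjusted p under 0.05, 0 called by DESeq2) in psWAT and 0 of 9 called by edgeR (1 at an unadjusted p under 0.05, 0 called by DESeq2) in LIV, with medians of 0.048, -0.032, 0.060 and -0.15. Of retinol handling genes, Ttr, the plasma partner of Rbp4, was lower in the late fast of STM (-1.29; list median -0.53). That list had 0 of 4 called by edgeR (0 at an unadjusted p under 0.05, 0 called by DESeq2) in iBAT, 0 of 7 called by edgeR (5 at an unadjusted p under 0.05, 0 called by DESeq2) in pgWAT, 0 of 8 called by edgeR (0 at an unadjusted p under 0.05, 0 called by DESeq2) in psWAT and 0 of 7 called by edgeR (2 at an unadjusted p under 0.05, 0 called by DESeq2) in LIV in the late fast, with medians of 0.16, 0.45, -0.058 and -0.15. The resistin family and receptors had 1 of 3 higher in iBAT (Retnla again; median 0.35), 1 of 3 higher at 22 h (Retnla 2.03; median -0.029) and 1 of 3 lower in STM (Tlr4 -1.15; median -0.22). It had 0 of 4 called by edgeR (0 at an unadjusted p under 0.05, 0 called by DESeq2) in pgWAT, 0 of 4 called by edgeR (0 at an unadjusted p under 0.05, 0 called by DESeq2) in psWAT and 0 of 2 called by edgeR (0 at an unadjusted p under 0.05, 0 called by DESeq2) in LIV, with medians of 0.044, -0.24 and -0.36.

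Between depots more genes of the lists were called, as were more of all genes: 37.5% in iBAT against pgWAT, 42.1% in psWAT against pgWAT and 49.2% in iBAT against psWAT. For all genes the medians were -0.12 for iBAT against pgWAT, 0.061 for psWAT against pgWAT and -0.27 for iBAT against psWAT. Here too, kit and depot cannot be told apart between iBAT and white fat. Other adipokines had 3 of 22 higher and 16 lower in iBAT against pgWAT (median -2.33) and 1 of 22 higher and 17 lower in psWAT against pgWAT (median -1.92), with Agt, angiotensinogen, at -6.50 and -6.04, Retnla at -5.02 and -4.17 and Rarres2 at -2.58 and -2.02. Tnf was the gene higher in psWAT than in pgWAT (4.27), and between iBAT and psWAT the list had 6 of 22 higher and 6 lower (median -0.34). Complement genes had 7 of 9 lower in iBAT against pgWAT (median -2.55), 1 of 9 higher and 4 lower in psWAT against pgWAT (Cd55 1.67; median -0.34) and 3 of 9 lower in iBAT against psWAT (median -0.67). Retinol handling genes had 1 of 10 higher and 7 lower in iBAT against pgWAT (Aldh1a1 -4.01, Stra6 -4.43, Rarb 3.24; median -3.55), 4 of 10 higher and 3 lower in psWAT against pgWAT (Aldh1a1 -3.46, Lrat 2.39; median 0.44) and 1 of 10 higher and 5 lower in iBAT against psWAT (median -2.32).

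The transcription factors had 2 of 9 higher and 1 lower in iBAT against pgWAT (median 0.29), 5 of 9 lower in psWAT against pgWAT, among them Pparg, the regulator of fat cell formation (-2.72; median -1.39), and 6 of 9 higher and 1 lower in iBAT against psWAT (Pparg 3.05; median 1.84). Adiponectin signalling and assembly had 3 of 11 higher in iBAT against pgWAT, led by Ppara (5.48; median 0.41), 2 of 11 lower in psWAT against pgWAT (Gstk1 -1.64, Cdh13 -1.40; median -0.11) and 5 of 11 higher in iBAT against psWAT (median 0.64). Leptin signalling had 1 of 12 higher in iBAT against pgWAT (Sh2b1 1.65; median -0.14), 4 of 12 higher and 1 lower in psWAT against pgWAT (Socs3, the feedback inhibitor of leptin signalling, 2.06; median 0.64) and 1 of 12 higher and 4 lower in iBAT against psWAT (Socs3 -2.95; median -0.16). The resistin family and receptors had 3 of 4 lower in iBAT against pgWAT, 2 of 4 lower in psWAT against pgWAT and 1 of 4 lower in iBAT against psWAT, with medians of -1.88, -0.70 and -1.06.

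By Pearson's r of log2(CPM + 0.5) over all retained libraries, the genes most like each ligand were as follows. Lep was most like A530016L24Rik (0.981), Retn (0.978) and Adipoq (0.975). Adipoq was most like Plin1 (0.992), A530016L24Rik (0.989) and Adig (0.988), and Retn was most like Lep (0.978), Adipoq (0.971) and AC159809.2 (0.966). For Cfd the closest were Cidec (0.989), Fabp4 (0.983) and Adipoq (0.981). For Rbp4 they were 2 genes whose symbols had been turned into dates in the table (0.955 and 0.948) and Orm1 (0.947), an acute phase gene of the liver. These values describe 9 organs, and libraries of 1 organ share its level. Within white fat, over 35 libraries and 15124 genes with each depot's mean subtracted, the genes most like Lep were Cdsn (0.957), Prkd1 (0.957), Phlda3 (0.955), Aoc3 (0.954) and Tmem45b (0.949), where libraries share their adipocyte content. On the same measure Rbp4 had r = 0.913, Retn 0.892, Adipoq 0.872, Cfd 0.813 and Adipor2 0.806 with Lep, and Adipor1 0.135.

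By the table's identifiers and the GRCm38 annotation, Lep (ENSMUSG00000059201) lies at chr6:29060220-29073877 on the plus strand, Lepr (ENSMUSG00000057722) at chr4:101717404-101815352 on plus, Adipoq (ENSMUSG00000022878) at chr16:23146536-23158028 on plus and Adipor1 (ENSMUSG00000026457) at chr1:134415378-134433351 on plus. Adipor2 (ENSMUSG00000030168) lies at chr6:119353150-119417704 on minus, Retn (ENSMUSG00000012705) at chr8:3655770-3660110 on plus, Cfd (ENSMUSG00000061780) at chr10:79890853-79892655 on plus and Rbp4 (ENSMUSG00000024990) at chr19:38116629-38125281 on minus. All are protein coding, and no exon of the 8 overlaps another annotated gene.

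Promoters of the 5 ligands are shown because within white fat the other 4 had r of 0.813 to 0.913 with Lep. They run from 250 bases before to 50 after the RefSeq start of GRCm38.p6, 5′ to 3′ on the gene's strand. They were searched on both strands for TATAAA, present in 4473 of 32851 promoters of that length (13.6%), for TTGCGCAA, a C/EBP site and its own reverse complement, present in 60 (0.183%), and for CACGTG, an E-box, present in 2349 (7.15%). Among the promoters of the 8 genes, Lep held TTGCGCAA, starting 55 bases before the start, and 1 of the promoters of Rbp4 held TATAAA, starting 28 bases before it. Capitals mark these matches, which are descriptions of the letters only. The others held none of the 3. The windows are chr6:29059971-29060270 for Lep, chr16:23146286-23146585 for Adipoq, chr8:3655520-3655819 for Retn and chr10:79890603-79890902 for Cfd, all on plus and in the order listed, and chr19:38124762-38125061 on minus for Rbp4.
Lep: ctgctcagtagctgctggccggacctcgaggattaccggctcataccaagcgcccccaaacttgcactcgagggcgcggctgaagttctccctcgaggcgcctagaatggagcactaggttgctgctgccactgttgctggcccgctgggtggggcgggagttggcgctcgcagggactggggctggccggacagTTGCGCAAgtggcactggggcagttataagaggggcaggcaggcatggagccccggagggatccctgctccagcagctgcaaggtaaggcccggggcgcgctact
Adipoq: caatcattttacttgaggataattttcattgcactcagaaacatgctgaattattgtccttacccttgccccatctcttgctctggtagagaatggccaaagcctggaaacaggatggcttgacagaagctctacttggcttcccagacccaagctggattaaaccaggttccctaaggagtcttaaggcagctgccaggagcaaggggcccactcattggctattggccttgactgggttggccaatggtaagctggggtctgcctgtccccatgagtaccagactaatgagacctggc
Retn: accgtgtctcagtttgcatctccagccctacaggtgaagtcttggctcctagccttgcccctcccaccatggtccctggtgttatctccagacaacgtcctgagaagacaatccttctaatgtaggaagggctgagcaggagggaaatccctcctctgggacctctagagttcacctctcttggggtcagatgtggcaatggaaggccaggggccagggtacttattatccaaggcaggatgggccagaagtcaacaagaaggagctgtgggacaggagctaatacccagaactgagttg
Cfd: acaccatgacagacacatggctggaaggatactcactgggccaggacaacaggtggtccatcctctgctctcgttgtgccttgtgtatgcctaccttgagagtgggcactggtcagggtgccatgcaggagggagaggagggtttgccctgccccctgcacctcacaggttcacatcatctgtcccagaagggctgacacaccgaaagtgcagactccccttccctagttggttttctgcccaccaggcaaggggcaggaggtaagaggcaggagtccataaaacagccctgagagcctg
Rbp4: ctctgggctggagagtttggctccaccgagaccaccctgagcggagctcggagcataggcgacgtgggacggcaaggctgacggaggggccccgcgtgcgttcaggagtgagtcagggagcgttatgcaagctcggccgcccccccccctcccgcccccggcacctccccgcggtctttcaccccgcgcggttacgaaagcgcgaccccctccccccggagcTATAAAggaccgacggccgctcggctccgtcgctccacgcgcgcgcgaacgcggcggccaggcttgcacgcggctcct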

How the data were processed

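Counts per gene, deposited by the authors for each library of 18 mice, are raw counts. The submitters' processing notes name TopHat2 2.1.1 and HTSeq 0.9.1 with GRCm38.p5, and the libraries were stranded mRNA libraries, white fat RNA having been extracted by a different kit from that of the other organs. Of 53686 genes, 15167 had no count. Gene positions and exon lengths came from a GRCm38 annotation, and promoters from RefSeq, GRCm38.p6, in which all 8 genes matched. The 8 genes, the pathway lists and the marker lists were chosen with earlier results of these data known. All 8 genes are plotted in each organ, and outside fat the values over fasting are given for only some of them. Of each pathway list at most 5 called genes per comparison are named, by smallest adjusted p.

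Counts were tested with edgeR 4.0.16 in R 4.3.3 (quasi-likelihood F test, TMM scaling, robust, Benjamini-Hochberg adjustment), 1 fit per organ and 1 over the 3 depots, for genes with at least the CPM of 10 counts in a library of median size in 3 libraries. Thresholds were an adjusted p of 0.05 and a log2 fold change of 1. Alternatives were DESeq2 1.42.0, the library total in place of TMM, no filter, all libraries, leaving out each library or replicate, the replicate number or animal as a block and the lane code as a covariate. Leaving out libraries that stand apart, an adipocyte marker covariate and the lane covariate in pgWAT, LIV, STM and OB were added after the data were seen. Mice are the same across depots, so there animals pair the libraries, a pairing that the main fit over the depots did not use. Single values were tested by exact or 100000-resample permutation in Python 3.11.15 with numpy 2.4.6 and scipy 1.17.1, with a pseudocount of 0.5 CPM. The edgeR fit of an organ called 196 of 200 genes changed by simulation and 18 that were left unchanged. The sign-flip test gave p under 0.05 in 17 of 200 simulated cases with no difference. Total counts were 3045845 to 27801717 and set the floor of 3 counts at 0.108 to 0.985 CPM. Results for some single genes are not reported here.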

Additional observations from a re-analysis of the deposited data

Results flagged for a closer look

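The 5 libraries left out for low totals were compared with the fed libraries of their organ, as data outside the comparisons. In iBAT 22 h replicate 1 (2700482 counts), Adipoq was at 1808 CPM against at most 1121 in the fed iBAT libraries, Retn at 205 CPM against at most 120, and Cfd at 5569 CPM against at most 1579. The 3 genes are those called at 22 h from the other 2 libraries of that time, where Cfd was at 6269 and 3789 CPM. The left-out library shared its lane with 22 h replicate 2, and that lane held no iBAT library of another time. So 22 h and lane cannot be told apart here either. In BRN 8 h replicate 3 (130701 counts), Cfd was at 38.3 CPM, from 5 counts, against at most 1.46 in the fed BRN libraries, and Rbp4 at 61.2 CPM, from 8 counts, against at most 11.9. Such values were not tested. No group of 4 to 10 libraries at 1 time was available for a test of single outlying values, since each time held at most 3.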

How the results depend on the processing

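Depth, lanes and left-out mice bounded what could be shown: a gene at the floor is known only to lie near or under 0.108 to 0.985 CPM, and the lane covariate could not be fitted for the late fast of iBAT, where the 22 h libraries shared no lane with an iBAT library of another time. In pgWAT, STM, LIV and OB no lane held both groups, and the covariate rests there on the few libraries of times that lay on both lanes. That use of the lane, leaving out libraries that stand apart and the marker covariate were added after the data were seen. Replicate numbers do not mark a shared animal within an organ, and in iBAT same-numbered libraries had a mean correlation of 0.182 (lowest -0.369, 23 of 40 pairs over 0.1). The cause of the changes below was not tested.

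Of the alternative values for members, 1595 kept direction and side of the threshold, 37 were weaker, 10 were stronger and 47 reversed. Of the counts of genes called, 239 stayed within 1.5-fold and the others moved. In iBAT late fast, 1395 became 0 with the marker covariate, 3037 with no fold threshold and 470 to 2720 with libraries left out. In iBAT 22 h, 4310 became 0 with the marker covariate and 2363 to 5522 with libraries left out. In iBAT 18 h, 39 became 1.4e+02 with DESeq2, 85 with no filter, 3 with the lane covariate, 5 with the marker covariate and 3 to 73 with libraries left out. In iBAT joint test, 4210 became 59 with the marker covariate and 876 to 5346 with libraries left out. In pgWAT late fast, 1 became 579 with DESeq2, 67 with the library total, 21 with no filter, 0 without the 3 pgWAT libraries that stand apart, 366 with the marker covariate, 0 with the lane covariate and 1 to 179 with libraries left out. In psWAT late fast, 0 became 2 with DESeq2. In LIV late fast, 2.3e+02 became 410 with no filter, 21 with the lane covariate, 1484 with no fold threshold and 1.3e+02 to 328 with libraries left out. In LIV joint test, 2241 became 3585 with DESeq2, 4055 with no filter, 294 with the lane covariate and 1274 to 2886 with libraries left out. In STM late fast, 1155 became 0 with the lane covariate, 2491 with no fold threshold and 0 to 2240 with libraries left out. In STM 22 h, 38 became 624 with DESeq2, 18 with the library total, 274 with no filter, 0 with all 18 libraries, 2 with the replicate block, 0 with the lane covariate and 0 to 572 with libraries left out. In STM 18 h, 1419 became 0 with the lane covariate, 2333 with no fold threshold and 1 to 2500 with libraries left out. In STM joint test, 1067 became 2805 with DESeq2, 0 with the lane covariate and 1 to 635 with libraries left out. In OB late fast, 29 became 13 with DESeq2, 1.6e+02 with no filter, 0 with the lane covariate, 327 with no fold threshold and 3 to 69 with libraries left out. In BRN late fast, 861 became 1299 with DESeq2, 0 with all 18 libraries, 0 with the lane covariate, 1883 with no fold threshold and 0 to 3767 with libraries left out. In CBL late fast, 11 became 29 with DESeq2, 74 with no filter, 55 with no fold threshold and 2 to 21 with libraries left out. In BST late fast, 1 became 0 with DESeq2, 16 with no filter, 0 with the replicate block, 10 with no fold threshold and 0 to 6 with libraries left out. In iBAT against pgWAT, 7070 became 12440 with no fold threshold. In psWAT against pgWAT, 7944 became 13857 with no fold threshold. In iBAT against psWAT, 9273 became 14155 with no fold threshold. In late fast of iBAT minus pgWAT, 4 became 1.5e+02 with DESeq2, 8 with the library total, 1 with no filter, 1 with all 54 libraries, 2 with the animal as replicate block, 2 without the 4 white fat libraries that stand apart and 1 to 392 with libraries left out. In late fast of psWAT minus pgWAT, 0 became 73 with DESeq2, 3 with the library total, 5 with all 54 libraries and 0 to 17 with libraries left out. In late fast of iBAT minus psWAT, 158 became 848 with DESeq2, 30 with no filter, 661 without the 4 white fat libraries that stand apart and 5 to 1320 with libraries left out.

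Members that changed sign were the following, in log2. In iBAT late fast, Lep (-1.08) became 0.37 with the marker covariate. Rbp4 (0.026) became -0.024 with all 18 libraries, -0.55 with the marker covariate and -0.26 to 0.29 with libraries left out. In pgWAT late fast, Lepr (0.56) became -0.48 without the 3 pgWAT libraries that stand apart and -0.86 with the lane covariate. In psWAT late fast, Lepr (0.24) became -0.030 with the replicate block and -0.11 to 1.03 with libraries left out. Adipor1 (0.095) became -0.12 to 0.29 with libraries left out. Adipor2 (-0.64) became -1.40 to 0.084 with libraries left out. In iBAT against psWAT, Lep (0.063) became -0.052 with DESeq2 and -0.75 with the library total. Cfd (0.069) became -0.023 with DESeq2 and -0.74 with the library total. In late fast of iBAT minus pgWAT, Lep (0.087) became -0.11 with all 54 libraries, -0.56 without the 4 white fat libraries that stand apart and -0.44 to 0.47 with libraries left out. Adipoq (0.32) became -0.060 without the 4 white fat libraries that stand apart. Adipor2 (0.25) became -0.029 to 0.52 with libraries left out. Rbp4 (-0.41) became 0.21 with the animal as replicate block. In late fast of psWAT minus pgWAT, Lep (-0.48) became -2.80 to 0.17 with libraries left out. Lepr (-0.29) became 0.27 with the animal as replicate block, 0.72 without the 4 white fat libraries that stand apart and -0.71 to 0.52 with libraries left out. Adipor1 (-0.035) became 0.093 with the library total and -0.28 to 0.096 with libraries left out. Adipor2 (-0.13) became 0.037 with the library total and -0.83 to 0.52 with libraries left out. In late fast of iBAT minus psWAT, Lep (0.57) became -0.086 to 2.89 with libraries left out. Adipor2 (0.38) became -0.27 to 1.08 with libraries left out. With TMM-scaled CPM the organ steps of Adipor1 became -0.38 for psWAT over STM, -0.053 for CBL over BST and -0.54 for BST over LIV. The log2 ratio of Lep to Adipoq in iBAT (-1.99) became -2.42 to -1.62 with libraries left out. The log2 ratio of Lep to Adipoq in pgWAT (-1.69) became -1.47 without the 3 pgWAT libraries that stand apart and -1.81 to -1.52 with libraries left out. Under the replicate block Cfd in the late fast of STM had an adjusted p of 0.0721 in edgeR, and the block changed no other call of a member within an organ.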
